A study of Mus musculus with 12 samples.

Results

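The genes described here are those of the mouse major histocompatibility complex (MHC) class I and class II pathways. They were chosen as every gene in the table of read counts whose symbol starts with H2-, 45 genes, together with *B2m*, *Cd74*, *Ciita*, *Nlrc5*, *Tap1*, *Tap2* and *Tapbp*, which gave 52 of 55335 genes. All 45 H2- genes lie on chromosome 17. The data were RNA sequencing libraries from male mice in 4 groups of n = 3. Bone-marrow-derived macrophages (BMDMs) came from Tshr f/f mice and from Tshr MKO littermates, labelled as 6 weeks old (6 to 8 weeks in the isolation protocol), and were differentiated for 7 days with M-CSF at 10 ng/mL and stimulated with TSH at 1 ng/mL for 24 h. Livers came from Tshr f/f and Tshr MKO littermates that were fed a high-fat diet (HFD) for 9 weeks from 6 weeks of age, fasted for 8 h and killed 5 min after insulin at 1.5 U/kg. Both genotypes carried the loxP-flanked *Tshr* allele, made on the C57BL/6N background, and Tshr MKO mice carried in addition Cre driven by the *Lyz2* promoter, which is active in myeloid cells. Every BMDM library was TSH-treated and every liver library was from an HFD-fed, insulin-injected mouse, so the comparisons are between genotypes under those conditions. In a liver library, most RNA comes from cells in which this Cre is not expected to act.

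MHC class I molecules pair a heavy chain with the light chain beta-2 microglobulin, encoded by *B2m*, and show peptides from the cytosol to CD8 T cells. On the C57BL/6 background the classical heavy chains are *H2-K1* and *H2-D1*, and the nonclassical heavy chains of the Q, T and M families have narrower expression or more specialised ligands. Class II molecules, alpha and beta chain pairs such as *H2-Aa* with *H2-Ab1*, are found mainly on macrophages, dendritic cells and B cells, and show peptides from the endosome to CD4 T cells. *Nlrc5* and *Ciita* encode the transactivators of class I and class II genes, respectively, and interferon gamma is a known inducer of both pathways.

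Of the 52 genes, 2 were classical class I heavy chains, 28 nonclassical class I genes (8 Q, 5 T, 14 M and *H2-Bl*), 5 class II chains and 5 class II peptide exchange genes. The rest were the invariant chain gene *Cd74*, *B2m*, 3 peptide loading genes (*Tap1*, *Tap2* and *Tapbp*), 2 transactivators and 5 other H2- symbols, among them *H2-Ke6*, which is named for its position. No counts in any of the 12 libraries were found for 13 genes, 11 of them nonclassical, including 10 of the 14 M genes. At these depths, 0 counts in a library allow a level of up to 0.0687–0.115 CPM (counts per TMM-scaled library size) in BMDMs and 0.0714–0.106 CPM in liver, limits that cover counting error only. After a filter on low counts, 35 of the 52 genes were tested in BMDMs and 32 in liver.

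The promoters of the genes that the results turn on are shown first, because class I and class II genes differ in the short elements near their start sites. Sequences are from RefSeq (GRCm38.p6), on the strand of the gene, and 35 of the 52 genes had a window from 250 bases before to 50 bases after a start. Capitals mark a kappa B type motif (GGGGATTCC, or GGGNNTTTC as a second form), an interferon type motif (TTTCACTT, or TTTCNNTTT as a second form), a Y box (ATTGG) or a class II X box (GCAACNGNT), on either strand. The windows lie at chr17:34000328-34000463, minus strand for *H2-K1*, chr17:35262918-35263053, plus strand for *H2-D1*, chr17:35424672-35424807, plus strand for *H2-Q6*, chr17:35439016-35439151, plus strand for *H2-Q7* and chr17:35469908-35470043, plus strand for *H2-Q10*.
H2-K1: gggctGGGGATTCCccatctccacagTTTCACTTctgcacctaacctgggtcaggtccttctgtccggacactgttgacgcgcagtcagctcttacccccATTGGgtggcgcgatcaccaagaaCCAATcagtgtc
H2-D1: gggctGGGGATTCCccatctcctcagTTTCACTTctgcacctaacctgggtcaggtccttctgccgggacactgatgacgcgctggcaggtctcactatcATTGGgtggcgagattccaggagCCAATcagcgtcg
H2-Q6: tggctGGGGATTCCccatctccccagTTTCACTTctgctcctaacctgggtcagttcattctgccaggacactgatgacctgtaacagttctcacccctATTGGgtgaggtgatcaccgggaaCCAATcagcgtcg
H2-Q7: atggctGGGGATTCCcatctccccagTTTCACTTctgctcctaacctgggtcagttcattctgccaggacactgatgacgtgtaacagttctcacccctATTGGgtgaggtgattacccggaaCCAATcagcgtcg
H2-Q10: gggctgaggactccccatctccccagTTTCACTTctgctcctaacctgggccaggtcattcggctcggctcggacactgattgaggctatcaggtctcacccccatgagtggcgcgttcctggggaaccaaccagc

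The first 4 windows hold the same order of elements, a kappa B type motif, an interferon type motif and a Y box on each strand. *H2-Q10* is shown beside them because its levels differed from those of the other Q genes, as described below. Its window holds the interferon type motif and neither of the kappa B type forms nor the Y box letters. The next windows are those of nonclassical T genes and of *B2m*, with the second interferon form, and of the class II beta chain gene *H2-Eb1*, at chr17:36042794-36042959, minus strand, chr17:36032716-36032851, minus strand, chr2:122147523-122147658, plus strand and chr17:34305766-34305855, plus strand, in the order printed. In *H2-T22* the interferon type forms overlap.
H2-T22: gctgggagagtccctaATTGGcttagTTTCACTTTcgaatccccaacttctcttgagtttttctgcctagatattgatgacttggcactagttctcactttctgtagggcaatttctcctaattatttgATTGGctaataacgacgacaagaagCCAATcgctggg
H2-T23: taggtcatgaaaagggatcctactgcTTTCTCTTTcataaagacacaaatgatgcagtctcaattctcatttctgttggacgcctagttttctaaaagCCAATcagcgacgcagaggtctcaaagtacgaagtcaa
B2m: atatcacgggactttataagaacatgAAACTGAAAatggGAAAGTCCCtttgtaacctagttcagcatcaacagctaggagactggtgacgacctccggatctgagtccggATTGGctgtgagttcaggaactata
H2-Eb1: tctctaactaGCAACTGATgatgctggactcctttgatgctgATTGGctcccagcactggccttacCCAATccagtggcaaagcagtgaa

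Over all 32851 promoter windows in the RefSeq table, the first kappa B form was found in 0.25% and the looser second form in 4.36%. The interferon type motif was found in 1.6%, its second form in 10.6% and the Y box, a short motif, in 37.4%. Among the 22 class I heavy chain genes with a window, 4 held the first kappa B form, 3 the second, 9 the interferon type motif and 4 its second form. The Y box was found in 19 of these 22 genes and in 8 of the 8 class II and peptide exchange genes with a window. Of the 8 class II and peptide exchange genes with a window, 0 held either kappa B form or the interferon type motif. The second interferon form was held by 2, *H2-DMa* and *H2-Oa*. A gene was counted where any of its windows held the letters, whereas the shares are of single windows. The match in *H2-DMa* lay in a window other than its first. The class II X box was found in 2.42% of all windows and, among the genes described here, in *H2-Eb1*, *H2-Eb2* and the class I gene *H2-M10.5*. A match is a description of the letters, and factor binding was not measured. The motifs were chosen, and shortened to at most 9 letters, after the windows had been seen. The counts beside the shares of all windows are therefore a description and no test.

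**Figure D1:**
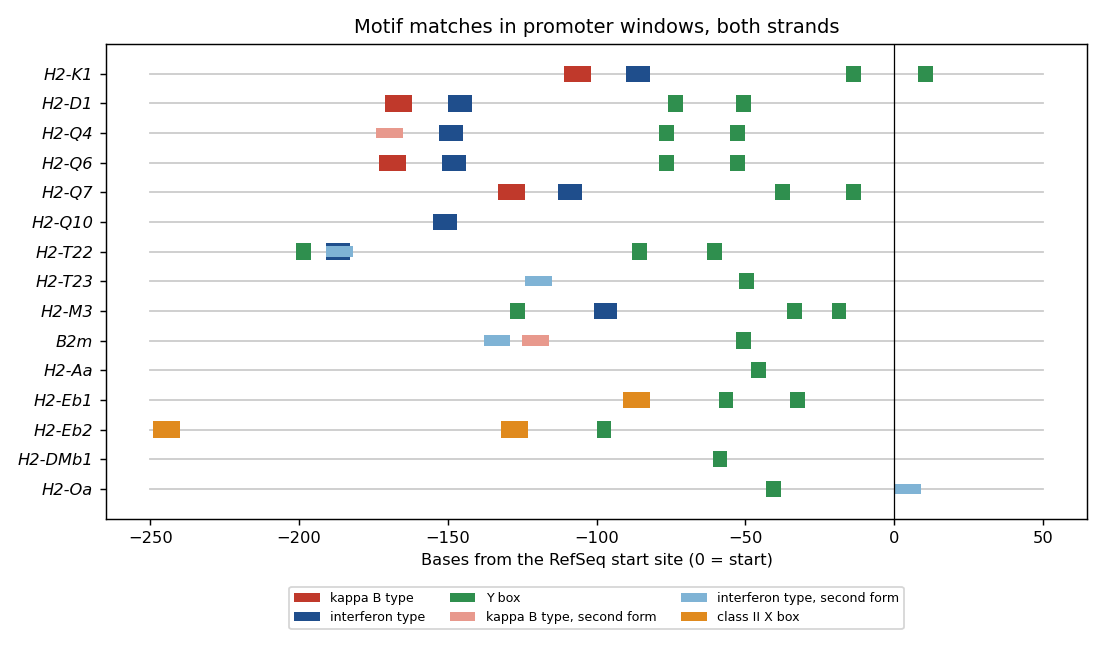
Positions of motif matches in the first promoter window of each of 15 genes, in bases from the RefSeq start site (0), on both strands. Coloured blocks are matches, drawn thinner for the second forms, and grey lines are the window searched. *H2-K1*, *H2-D1*, *H2-Q6* and *H2-Q7* show the kappa B type, interferon type and Y box blocks in the same order, and *H2-Q10* shows the interferon type block alone.

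Sequencing depth was 33683981–40954211 counts in BMDM libraries and 28962878–40420513 in liver libraries. The normalisation factor of f/f BMDM replicate 3 was 0.738 and those of the other 5 BMDM libraries were 0.993–1.114. *Tshr* had at most 5 counts in any library, so its loss could not be checked. *Lyz2*, whose promoter drives the Cre, was at 8870, 9840 and 8770 CPM in f/f and 16100, 14500 and 22300 CPM in MKO BMDMs. Its groups were separate with MKO higher, as were 14.8% of all genes tested. The labels of the BMDM libraries were taken as given, and no second source was used to check them. Summed macrophage markers, 6 genes, were at 5910–6440 CPM in f/f and 5490–7010 CPM in MKO BMDMs, and of 5 hepatocyte markers 4 had no counts there. Fibroblast markers, 3 genes, summed to 950, 2190 and 922 CPM in f/f and to 931, 1110 and 593 CPM in MKO BMDMs. They were highest in f/f replicate 2. The part of such cells in the levels given below was not tested. For liver, a table of receptor counts given with the study could be matched to the libraries, and all 72 of its values equalled a library whose label names the other genotype. *Lyz2* was at 27.7, 59.9 and 44.7 CPM in livers labelled f/f and at 1.56, 106 and 43.7 CPM in those labelled MKO, with overlap. In the liver labelled MKO replicate 1, summed Kupffer cell markers, 5 genes, were at 389 CPM, inside the range of the other livers. Which liver labels are right was not settled. Directions in liver follow the labels of the libraries, which the receptor table contradicts, and livers are named below by their label.

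In BMDMs, class I genes had lower estimates in Tshr MKO than in Tshr f/f libraries. Of the 21 class I pathway genes tested (heavy chains, *B2m*, *Tap1*, *Tap2*, *Tapbp* and *Nlrc5*), 21 had a lower estimate in MKO. At an unadjusted p under 0.05, 14 of them were lower, beside 10.2% of all genes tested. The median log2 fold change of the 21 was −1.17, where that of all 15372 genes tested was 0.01. The largest differences relative to their errors were in the Q family. No gene passed an adjusted p of 0.05 by edgeR quasi-likelihood tests, among the 35 described here or among all genes (0%), and the lowest adjusted p was 0.218. DESeq2 placed 11 of the 35 under an adjusted p of 0.05, beside 7.91% of all genes it tested, and an edgeR fit to all 12 libraries placed 4, beside 0.87%.

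Over all genes tested, 10.2% were lower and 7.73% higher in MKO BMDMs at an unadjusted p under 0.05, beside 14 and 0 of the 35 genes here. The 3 MKO values all lay below the 3 f/f values in 13 of the 35 genes and all above in 0, beside 14% and 14.8% of all genes tested. Leaving out f/f replicate 2 gave 19 genes lower, beside 14.7% of all genes, and leaving out MKO replicate 2 gave 10, beside 5.17%.

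The classical heavy chains held most of the class I counts and differed less than most nonclassical genes. *H2-K1* was at 3820, 2860 and 5200 CPM in f/f and at 2500, 2270 and 2750 CPM in MKO BMDMs, with log2 fold change −0.66 ± 0.27 (SE, edgeR adjusted p = 0.278). *H2-D1* was at 5120, 3710 and 6500 CPM in f/f and at 4350, 4080 and 4280 CPM in MKO BMDMs, with log2 fold change −0.27 ± 0.26 (edgeR adjusted p = 0.587). The groups were separate for *H2-K1*, while for *H2-D1* f/f replicate 2 was below all 3 MKO libraries. *B2m*, the shared light chain, was at 4080, 3010 and 5350 CPM in f/f and at 2980, 2770 and 3060 CPM in MKO BMDMs, with f/f replicate 2 inside the range of the MKO libraries. Without f/f replicate 3, which had the highest values, the log2 fold change was −0.42 for *H2-K1*, −0.06 for *H2-D1* and −0.27 for *B2m*, where it had been −0.50 with all libraries.

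A ratio taken within a library does not depend on its scaling. The ratio of *H2-K1* to *H2-D1* was 0.745, 0.77 and 0.8 in f/f and 0.574, 0.557 and 0.643 in MKO BMDMs. *H2-Q6* was at 0.0667, 0.0752 and 0.0667 of *H2-D1* in f/f and at 0.0196, 0.0199 and 0.0242 in MKO BMDMs. For both, and for *B2m*, *H2-Q7*, *H2-T23*, *Tap1* and *Tapbp*, the 3 MKO ratios all lay below the 3 f/f ratios. The exact two-sided permutation p was 0.1 in each of the 7, the smallest that 3 against 3 libraries allow. All 7 share the denominator *H2-D1*, so they are not independent, and the ratio was not taken over all genes. Without a ratio, the groups were separate with MKO lower in 14% of all genes tested.

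Nonclassical genes had a lower estimate in MKO BMDMs in 14 of 14 tested. At an unadjusted p under 0.05, 9 of them were lower, beside 10.2% of all genes tested. The median log2 fold change of the nonclassical genes was −1.06, and −0.70 without f/f replicate 3. The median was −1.23 over 7 Q genes, −0.90 over 4 T genes and −1.94 over 2 M genes. *H2-Q6* and *H2-Q7* encode Qa-2 molecules, which are known as ligands of receptors on natural killer and T cells. *H2-Q6* was at 342, 279 and 434 CPM in f/f and at 85.3, 81.1 and 104 CPM in MKO BMDMs, or 3.91-fold lower, and log2 fold change −1.97 ± 0.22 (edgeR adjusted p = 0.218). *H2-Q7* was at 607, 467 and 987 CPM in f/f and at 218, 197 and 225 CPM in MKO BMDMs, or 3.22-fold lower. Both genes were separate between groups, with the lowest f/f library above the highest MKO library by more than the range of the MKO libraries.

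*H2-Q4* was at 550, 436 and 726 CPM in f/f and at 246, 230 and 280 CPM in MKO BMDMs, with log2 fold change −1.18 ± 0.23. *H2-Q5*, annotated as a polymorphic pseudogene, was at 64.3, 51 and 77.7 CPM in f/f and at 22, 18 and 26.2 CPM in MKO BMDMs, or 2.91-fold lower. Neither gene overlapped between groups. The Q genes share exon sequence, so reads could be split among them by the counting. Of all stretches of 100 bases in annotated transcripts, 14% in *H2-Q5*, 12% in *H2-Q7*, 10.8% in *H2-Q6* and 2.16% in *H2-Q4* also occur in another gene. The summed Q family, which does not depend on how reads were split within it, was at 1605, 1266 and 2287 CPM in f/f and at 614.5, 564.4 and 662.8 CPM in MKO BMDMs, again with no overlap.

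Of the T family, *H2-T23* encodes Qa-1, the ligand of NKG2A receptors. It was at 888, 605 and 1080 CPM in f/f and at 431, 445 and 465 CPM in MKO BMDMs, with log2 fold change −0.94 ± 0.25 (edgeR adjusted p = 0.218). *H2-T22* was at 351, 252 and 384 CPM in f/f and at 195, 187 and 191 CPM in MKO BMDMs, or 1.72-fold lower. Both were separate, and the MKO libraries lay within a narrower range than the f/f libraries. *H2-T24* was at 185, 53.6 and 194 CPM in f/f and at 87.1, 80.1 and 73 CPM in MKO BMDMs, where f/f replicate 2 was the lowest of the 6 libraries.

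Among the M genes, *H2-M3*, which presents N-formylated peptides, was at 87.4, 75 and 108 CPM in f/f and at 55, 59.1 and 64 CPM in MKO BMDMs, with log2 fold change −0.60 ± 0.17. *H2-M2* had the largest fold change of the genes tested here, at 19, 10.9 and 55.9 CPM in f/f and at 1.93, 4.21 and 2.7 CPM in MKO BMDMs, or 9.69-fold lower, and log2 fold change −3.28 ± 0.68. It was separate between groups, and most of its f/f level came from replicate 3. *H2-Q10*, a liver gene, was low in BMDMs, at 9.82, 3.34 and 14.5 CPM in f/f and at 2.01, 4.83 and 4.87 CPM in MKO, with overlap. Of its stretches of 100 bases, 8.01% occur in another gene.

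Of the nonclassical genes not yet given, *H2-T10* was at 26.9, 20.1 and 60.2 CPM in f/f and at 17.6, 14.8 and 12.5 CPM in MKO BMDMs, separate and 2.39-fold lower, and shares 7.06% of its stretches with *H2-T22*. *H2-Q1* ranged over 28.6–46.6 CPM in f/f and 22.2–40.5 CPM in MKO, with overlap, and *H2-Q2* and *H2-Bl* were under 4 CPM in every BMDM library. Among the other H2- symbols, the pseudogene *H2-K2* ranged over 10–19.4 and 11.3–16.1 CPM. The genes with counts that were not tested in BMDMs were *H2-Ea*, *H2-M5*, *H2-M6-ps* and *H2-Q3*, and in liver these 4 with *H2-Eb2*, *H2-M2* and *H2-Oa*.

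Peptide loading genes had a lower estimate in 3 of 3, each with separate groups, where 14% of all genes tested were separate with MKO lower. *Tap1* and *Tap2* encode the transporter that brings peptides into the endoplasmic reticulum, and *Tapbp* encodes tapasin, which holds class I molecules at it. *Tap1* was at 428, 253 and 630 CPM in f/f and at 165, 153 and 183 CPM in MKO BMDMs, with log2 fold change −1.39 ± 0.34 (edgeR adjusted p = 0.218). *Tap2* was at 260, 147 and 396 CPM in f/f and at 96.5 to 113 CPM in MKO BMDMs, or 2.58-fold lower. *Tapbp* was at 1170, 602 and 1740 CPM in f/f and at 520, 503 and 538 CPM in MKO BMDMs, or 2.25-fold lower. In all 3 genes f/f replicate 2 was the f/f library nearest to MKO. *Nlrc5*, the class I transactivator gene, was at 443, 206 and 743 CPM in f/f and at 183, 163 and 222 CPM in MKO BMDMs, with log2 fold change −1.29 ± 0.45, with f/f replicate 2 below MKO replicate 3. Without f/f replicate 3 it was −0.78.

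**Figure D2:**
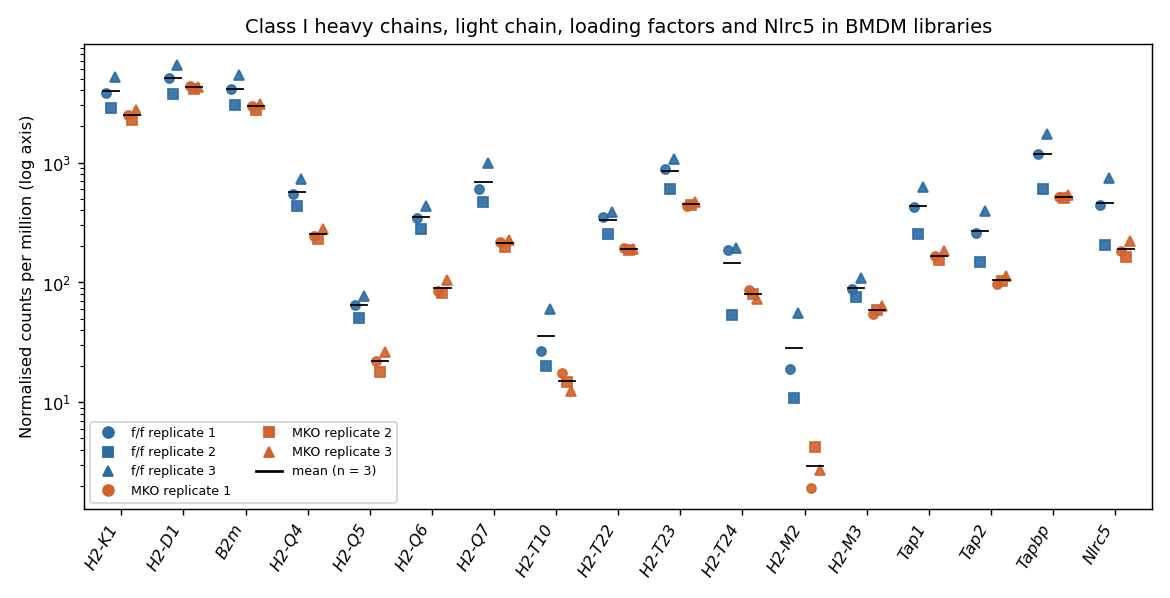
Normalised counts (CPM, log axis) of 17 class I pathway genes in the 6 BMDM libraries. Blue symbols are f/f and orange symbols MKO libraries, with 1 shape per replicate number, and black bars are means of n = 3. The MKO libraries lie close together and mostly below the f/f libraries, of which replicate 3 is highest for each gene shown.

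Other genes of the pathway, from lists that were chosen with earlier results of these data known, were counted in the same fit. Of 10 antigen processing and loading genes, 7 were lower in MKO BMDMs at an unadjusted p under 0.05 and 0 higher, where 10.2% of all genes were lower and 7.73% higher. These were the immunoproteasome subunit genes *Psmb8*, *Psmb9* and *Psmb10*, the proteasome activator genes *Psme1* and *Psme2*, the trimming peptidase gene *Erap1* and *Tapbpl*, with *Psme2* at 469, 271 and 777 CPM in f/f and at 166, 186 and 176 CPM in MKO. Of 7 interferon gamma axis genes, 3 were lower (*Ifng*, *Jak2* and *Irf1*) and 1 higher (*Ifngr1*), beside the same shares of all genes. *Ifng*, the cytokine gene, was at 19.6, 2.47 and 35.4 CPM in f/f and at 0.418, 0.427 and 0.771 CPM in MKO BMDMs, separate between groups. *Irf1*, an interferon-induced transcription factor gene, was at 1050, 396 and 1190 CPM in f/f and at 256, 321 and 491 CPM in MKO BMDMs, with f/f replicate 2 inside the MKO range. Summed markers of T and natural killer cells, 5 genes, were at 9.52–14 CPM in f/f and 4.27–19.3 CPM in MKO BMDMs. The part of interferon gamma in the class I difference was not tested.

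Of 7 genes of the SXY enhanceosome, the complex that binds MHC promoters, 2 were lower (*Rfx5* and *Nfyb*) and 0 higher, again beside 10.2% and 7.73%. Of 5 other class I like genes 4 were tested. *Cd1d1*, which presents lipids, was lower, and *Fcgrt* and *Hfe*, which handle immunoglobulin and iron, were higher. *Cd1d1* was at 99.1, 155 and 208 CPM in f/f and at 13.8, 13.5 and 41 CPM in MKO BMDMs, whereas *Fcgrt* was at 14.6, 13.3 and 6.45 CPM in f/f and at 34.2, 24.7 and 50.3 CPM in MKO. None of these genes passed an adjusted p of 0.05 by edgeR.

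Class II genes in BMDMs did not differ in 1 direction. At an unadjusted p under 0.05, 0 of the 11 class II pathway genes tested passed, beside 10.2% lower and 7.73% higher of all genes. *H2-Aa*, the A alpha chain gene, was at 1390, 329 and 736 CPM in f/f and at 521, 748 and 3020 CPM in MKO BMDMs, with log2 fold change 0.80 ± 0.80 (edgeR adjusted p = 0.602). *H2-Ab1*, its beta chain partner, was at 1320, 436 and 1020 CPM in f/f and at 450, 641 and 2450 CPM in MKO. *H2-Eb1* was at 751, 190 and 336 CPM in f/f and at 290, 412 and 1750 CPM in MKO. For all 3 genes the groups overlapped, MKO replicate 3 was the highest library and f/f replicate 2 the lowest.

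*Cd74*, the invariant chain that guides class II molecules to the endosome, was at 3780, 975 and 2490 CPM in f/f and at 1470, 1910 and 7020 CPM in MKO BMDMs. *Ciita*, the class II transactivator gene, was at 109, 63.6 and 25.9 CPM in f/f and at 53.6, 64.7 and 231 CPM in MKO. MKO replicate 3 was again the highest. The median log2 fold change of the 4 class II chains tested was 0.58 with all libraries and −0.32 without MKO replicate 3. Without it, the estimates turned to −0.37 for *H2-Aa*, −0.76 for *H2-Ab1*, −0.28 for *H2-Eb1*, −0.52 for *Cd74* and −0.16 for *Ciita*. Dendritic cell markers, 7 genes, summed to 33.8–60.6 CPM in f/f and 73.2–98.4 CPM in MKO BMDMs, and B cell markers, 5 genes, to 0.883–3.62 and 1.83–4.64 CPM. Most of the dendritic cell sum was *Itgax*, which macrophages also express. *Itgax* was at 48, 16 and 32.9 CPM in f/f and at 68.6, 62.1 and 85.8 CPM in MKO BMDMs. Of 6 dendritic cell markers tested, *Itgax* and *Batf3* were higher in MKO at an unadjusted p under 0.05 and *Ccr7* lower. Of all genes, 7.73% were higher and 10.2% lower. *Batf3* was at 1.33, 1.65 and 0.998 CPM in f/f and at 2.14, 2.64 and 3.35 CPM in MKO BMDMs. *Ccr7* was 3.33-fold lower in MKO, and *Flt3* was under 2 CPM in every library. The part of these cells in the class II levels was not tested. *H2-Ea* is a polymorphic pseudogene in this annotation and was at 0 CPM in every BMDM library but MKO replicate 2, at 0.08 CPM.

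The peptide exchange genes *H2-DMa* and *H2-DMb1* load peptides onto class II molecules. *H2-DMa* was at 125, 79.2 and 55.8 CPM in f/f and at 64.1, 65 and 208 CPM in MKO BMDMs. *H2-DMb1* was at 168, 80.4 and 130 CPM in f/f and at 68.9, 74.3 and 214 CPM in MKO. Both overlapped, with MKO replicate 3 highest. *H2-DMb2* ranged over 4.57–6.55 CPM in f/f and 3.03–13.6 CPM in MKO, *H2-Oa* over 0.779–3.38 and 0.496–1.83 CPM, and *H2-Ob* over 1.08–3.38 and 0.627–1.37 CPM. *H2-DMb1* and *H2-DMb2* share 11.3% and 10.3% of their stretches of 100 bases with each other. Of 6 class II processing genes, the protease genes *Ctsl* and *Lgmn* were higher in MKO at an unadjusted p under 0.05. *Marchf1*, whose product marks class II molecules for degradation, was lower. These stand beside 7.73% higher and 10.2% lower of all genes tested. *Marchf1* was at 166, 158 and 341 CPM in f/f and at 82.3, 75.5 and 148 CPM in MKO BMDMs, separate between groups.

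**Figure D3:**
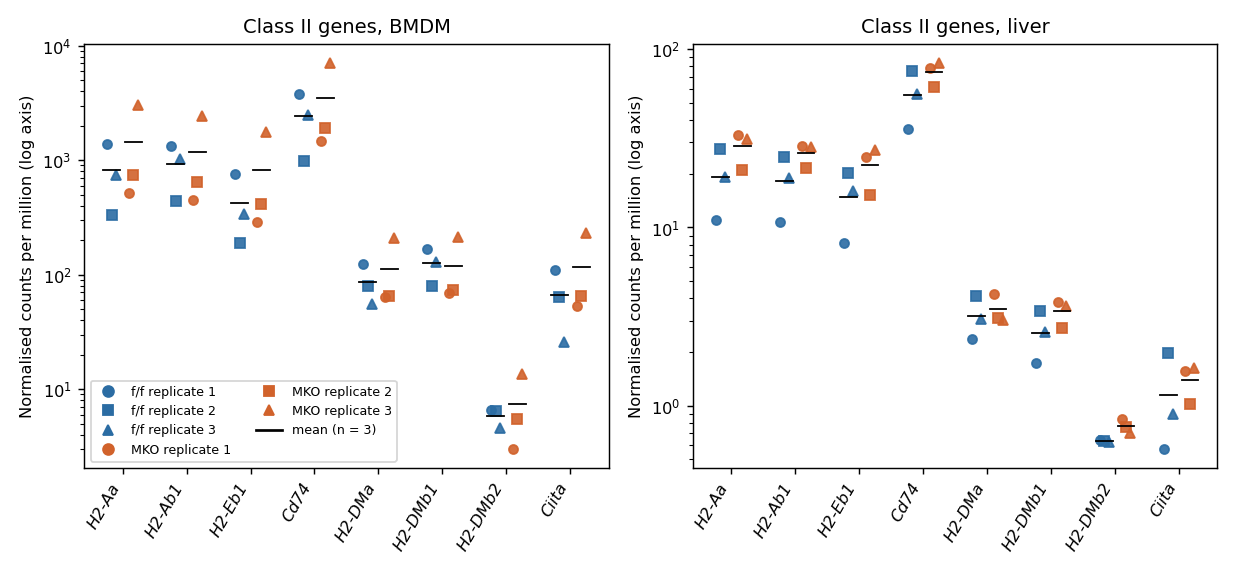
Normalised counts (CPM, log axes) of 8 class II pathway genes in BMDM (left) and liver (right) libraries. Blue symbols are f/f and orange symbols MKO libraries, with 1 shape per replicate number, and black bars are means of n = 3. MKO replicate 3 is the highest BMDM library for each gene shown, and f/f replicate 1 is the lowest liver library for all but *H2-DMb2*.

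In liver, differences were small and mostly upward. Of the 32 genes tested, 30 had a higher estimate in livers labelled MKO, and the median log2 fold change was 0.21, where that of all 15062 genes tested was −0.01. At an unadjusted p under 0.05, 3 of the 32 were higher and 0 lower, beside 5.27% higher and 5.18% lower of all genes tested. The 3 were *H2-T22*, *H2-Ke6* and *H2-T-ps*. None passed an adjusted p of 0.05 by edgeR (0% of all genes), with a lowest adjusted p of 0.334 among the 32. Groups were separate with MKO higher in 5 genes and with MKO lower in 0, beside 9.6% and 7.74% of all genes. Leaving out the liver labelled f/f replicate 2 gave 8 genes higher, beside 6.35% of all genes, and leaving out f/f replicate 3 gave 1, beside 3.41%. In whole liver, more cells of a type and more RNA per cell cannot be told apart.

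*H2-K1* was at 1050, 1110 and 1070 CPM in livers labelled f/f and at 1240, 1200 and 1280 CPM in those labelled MKO, with log2 fold change 0.20 ± 0.11 (edgeR adjusted p = 0.543). *H2-D1* was at 649, 689 and 645 CPM in f/f and at 625, 688 and 689 CPM in MKO livers. The groups were separate for *H2-K1* and overlapped for *H2-D1*. The ratio of *H2-K1* to *H2-D1* was 1.61, 1.62 and 1.66 in f/f and 1.99, 1.74 and 1.86 in MKO livers. For this ratio and that of *H2-T23*, the MKO livers lay above all f/f livers (exact two-sided permutation p of 0.1, the smallest possible). The ratios of *B2m*, *H2-Q6*, *H2-Q7*, *Tap1* and *Tapbp* to *H2-D1* overlapped between groups. Their exact two-sided permutation p-values were 0.2, 0.5, 0.2, 0.2 and 0.8, in that order. *B2m* was at 954, 1100 and 904 CPM in f/f and at 1120, 1080 and 1220 CPM in MKO livers, with f/f replicate 2 inside the MKO range.

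Among nonclassical genes, 11 of 13 tested had a higher estimate in livers labelled MKO. Their median log2 fold change was 0.14, or 0.0052 without f/f replicate 1 and 0.38 without f/f replicate 2. *H2-T22* was at 69.3, 89.3 and 68.7 CPM in f/f and at 113, 96.1 and 114 CPM in MKO livers, with log2 fold change 0.51 ± 0.14 (edgeR adjusted p = 0.334). *H2-T23* was at 170, 208 and 188 CPM in f/f and at 211, 224 and 235 CPM in MKO livers. Both were separate, although the gap for *H2-T23* was small beside the f/f range. *H2-Q10*, whose product is secreted by hepatocytes, was at 1910, 1620 and 1650 CPM in f/f and at 1920, 1760 and 1970 CPM in MKO livers, with overlap. *H2-Q6* ranged over 24.3–44.8 and 36.8–46.5 CPM and *H2-Q7* was at 84.1 ± 16.9 and 97.1 ± 4.66 CPM (mean ± SD), also with overlap. *H2-Q2*, at a low level, was at 0.474, 0.937 and 1.39 CPM in f/f and at 1.84, 1.57 and 1.13 CPM in MKO livers, with log2 fold change 0.70 ± 0.45 and overlap. *H2-Q4* was at 27.9–58.6 and 41.2–46.2 CPM, and *H2-M3* and *H2-T24* were under 5 CPM in every liver.

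The pseudogene *H2-T-ps* was at 0.981, 0.469 and 0.73 CPM in f/f and at 2.71, 0.929 and 2.55 CPM in MKO livers, a low level with overlap. *H2-Ke6*, a dehydrogenase gene, was at 20.6, 22.8 and 18.1 CPM in f/f and at 23.4, 31.8 and 27.6 CPM in MKO livers, and 61.6% of its stretches of 100 bases also occur in the annotated transcripts of *Gm20427*. Loading genes differed little, with *Tap1* at 25.2, 27 and 28.2 CPM in f/f and at 27.9, 29.5 and 33.4 CPM in MKO livers, and *Tapbp* at 73.9, 80.7 and 73.9 CPM in f/f and at 80.5, 73.6 and 78.9 CPM in MKO. *Tap2* ranged over 19.3–26.7 and 20.5–25.9 CPM, and *Nlrc5* over 31.1–40.2 and 32.8–48.8 CPM. All 4 overlapped.

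Class II chains had a higher estimate in livers labelled MKO in 3 of 3 tested, with overlap in each. The median log2 fold change was 0.57 with all libraries, 0.29 without f/f replicate 1 and 0.88 without f/f replicate 2. *H2-Aa* was at 11, 27.5 and 19.1 CPM in f/f and at 33.2, 21.1 and 31.5 CPM in MKO livers, with log2 fold change 0.57 ± 0.34 (edgeR adjusted p = 0.6). *H2-Ab1* was at 10.7, 24.8 and 18.9 CPM in f/f and at 28.7, 21.5 and 28.4 CPM in MKO, and *H2-Eb1* at 8.19, 20.2 and 16.1 CPM in f/f and at 24.7, 15.2 and 27.3 CPM in MKO. *Cd74* was at 35.8, 75 and 56.3 CPM in f/f and at 78.7, 61.5 and 83.4 CPM in MKO livers. The liver labelled f/f replicate 1 was the lowest in all 4 genes. Summed Kupffer cell markers, 5 genes, were at 223–590 CPM in f/f and 195–503 CPM in MKO livers, dendritic cell markers at 8.9–43.5 and 9.2–30.2 CPM, and B cell markers at 1.86–4.96 and 2.27–3.38 CPM. The liver labelled f/f replicate 1 was also the lowest in dendritic cell and B cell markers and in those of sinusoidal endothelium, at 34.4 CPM beside 80.8–124 in the other 5 livers, and of fibroblasts, at 23.7 CPM beside 70.1–194. In 5 neutrophil markers, by contrast, that liver was the highest, at 65.9 CPM beside 5.67–20.6 in the other 5 livers. The liver labelled MKO replicate 3 was the lowest in Kupffer cell markers, at 195 CPM, and in 6 macrophage markers, at 84.6 CPM. In dendritic cell markers it was at 9.2 CPM, beside 8.9 CPM in f/f replicate 1. Its summed class II chains were the highest, at 87.14 CPM, and those of f/f replicate 1 the lowest, at 29.91 CPM. The part of these cell types in the class II levels was not tested. *Ciita* was under 2 CPM in every liver, and the exchange genes *H2-DMa* and *H2-DMb1* were under 5 CPM.

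Of the 10 processing and loading genes, 4 were higher in livers labelled MKO at an unadjusted p under 0.05, *Psmb8*, *Psmb9*, *Psmb10* and *Psme2*, and 0 were lower, where 5.27% of all genes were higher and 5.18% lower. *Psmb9* was at 7.28, 13.5 and 9.32 CPM in f/f and at 15.8, 13.5 and 18.4 CPM in MKO livers. In the class II processing, SXY enhanceosome, interferon gamma axis and other class I like lists, 0 genes passed in either direction. *Ifng* was at 0.133 CPM in f/f replicate 3 and at 0 in the other 5 livers.

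**Figure D4:**
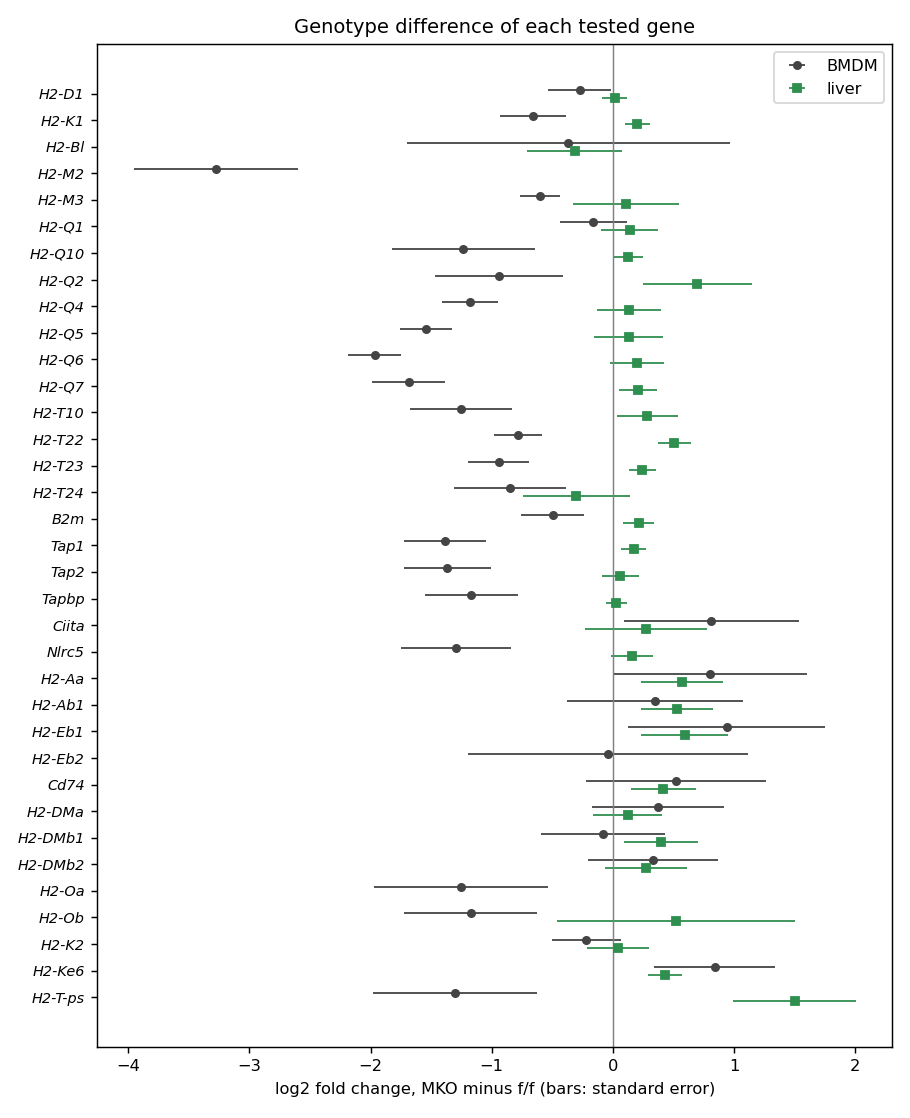
Log2 fold change, MKO minus f/f, of every gene tested in BMDMs (dark circles) or in liver (green squares), with bars for the standard error of the edgeR fit (n = 3 per group). Class I heavy chains, loading genes and *Nlrc5* lie left of 0 in BMDMs and near or right of 0 in liver, while class II genes have wide bars in BMDMs.

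Whether the genotype difference itself differed between BMDMs and liver was tested as an interaction over the 12 libraries, with BMDM minus liver as the direction. Of the 35 genes tested, 15 had a lower and 0 a higher difference at an unadjusted p under 0.05, beside 7.42% and 7.12% of all 17246 genes, and 0 passed an adjusted p of 0.05 by edgeR, beside 0.0058% of all genes. Without f/f BMDM replicate 2, 9 of the 35 passed, beside 1.93% of all genes, and DESeq2 with all libraries placed 9 under that threshold, beside 4.64%. The difference was −2.17 ± 0.35 for *H2-Q6* (edgeR adjusted p = 0.111), −1.30 ± 0.25 for *H2-T22* (0.125) and −1.90 ± 0.37 for *H2-Q7* (0.126). For *Tap1* it was −1.56 ± 0.37, for *H2-K1* −0.87 ± 0.29 and for *H2-D1* −0.29 ± 0.27. Among class II genes it was 0.23 ± 0.96 for *H2-Aa* and 0.11 ± 0.87 for *Cd74*, errors that leave a difference of either direction possible. These values rest on the liver labels. With the liver direction turned, 8 of the 35 genes had a lower and 1 a higher difference at an unadjusted p under 0.05, beside 7.46% and 6.62% of all genes, and 0 passed the adjusted p. The difference was then −1.74 ± 0.35 for *H2-Q6* (edgeR adjusted p = 0.189), −0.26 ± 0.25 for *H2-T22* (0.665), −0.44 ± 0.29 for *H2-K1* (0.506) and −0.68 ± 0.28 for *H2-T23* (0.322).

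The 2 tissues also differed in which genes they used, given here as mean CPM per kilobase of annotated exon in f/f libraries, a scale on which genes can be compared. In BMDMs, *B2m* had the highest level, at 4830, followed by *H2-D1* at 1980, *Cd74* at 1440 and *H2-K1* at 1350. In liver, *B2m* was at 1150, *H2-Q10* at 398, *H2-K1* at 368 and *H2-D1* at 256, so that the order of *H2-K1* and *H2-D1* was the opposite of that in BMDMs. *Cd74* in BMDMs differed from its neighbours *H2-D1* and *H2-K1*, and *H2-Q10* in liver from *H2-K1*, by less than its own spread over libraries. *H2-Q10* was at 2.12 CPM per kilobase in BMDMs. Class II chains were at 216–361 in BMDMs (*H2-Aa*, *H2-Eb1* and *H2-Ab1*) and at 5.06–7.61 in liver. BMDM and liver libraries came from different experiments, and cell source and treatment cannot be told apart here.

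**Figure D5:**
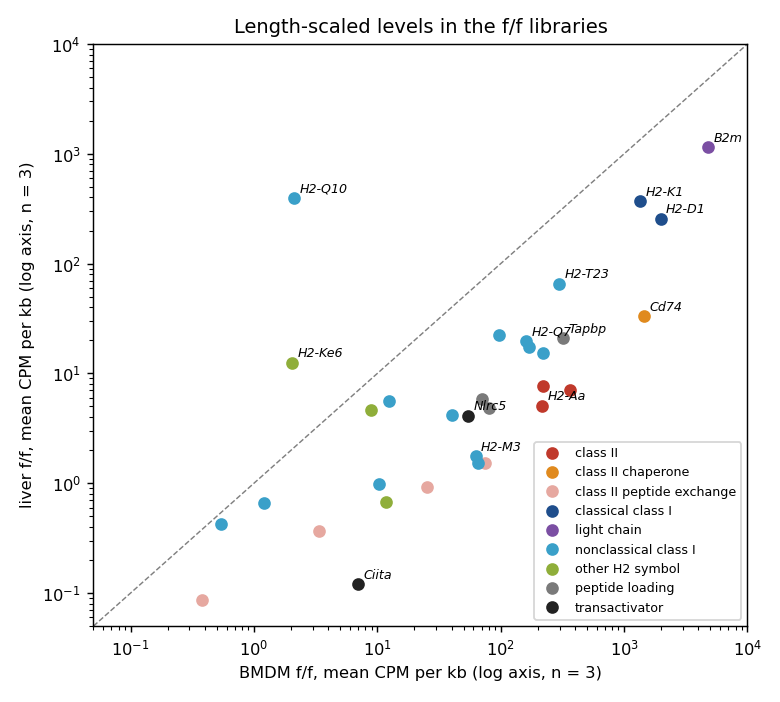
Mean CPM per kilobase of exon in f/f BMDM libraries (horizontal) against f/f liver libraries (vertical), both on log axes, n = 3 each, for genes tested in both tissues. Points are coloured by class and the dashed line marks equal levels. *H2-Q10* lies far above the line, at 2.12 in BMDMs and 398 in liver, and *H2-Ke6* lies above it, at 2.05 and 12.5. The other genes drawn lie below it.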

How the data were processed

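Total RNA of BMDMs and livers was made into strand-specific TruSeq libraries and read on a NovaSeq instrument. The deposited values are counts of reads per gene, made by the authors for 12 libraries, 3 per group, with adapters removed with Skewer and quality checked with FastQC 0.11.2. The submitters' processing notes also name STAR, StringTie and mm10, with no role, and the counting program and its annotation are not given in the sources used here. The methods give mice as n = 3 per group, with no statement of which mouse or culture each library came from, so p-values measure the spread between these libraries. Columns of other samples numbered 0.

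Counts were tested per tissue with edgeR 4.0.16 in R 4.3.3 (TMM factors, filterByExpr, robust quasi-likelihood fit) and Benjamini-Hochberg adjustment over all genes of the fit. CPM values use TMM-scaled library sizes, standard errors were taken as |log2 fold change| divided by √F, and exon lengths are from GENCODE M21 (GRCm38). The study's own model for differences was MARS in DEGseq, which was not used here. The scripts were tested on simulated counts with known changes. The genes and lists were chosen with earlier results of these data known, so no test was made over a list. Named with values in each library were the main genes of each class and, per tissue, the 3 with the lowest unadjusted p and the 3 with the largest fold change; ranges stand for some. Other pathway genes were named only where past an unadjusted p under 0.05. The names *Marchf1* and *Marchf8* are those of the table for genes first listed under older symbols. Alternatives were DESeq2 1.42.0, RLE and upper-quartile factors, genes left unfiltered or kept at a mean of 50 counts or more, 1 fit over all 12 libraries, a replicate block, the sample ID letter as a covariate (liver), each library left out and, added after seeing the data, library size alone and the liver direction turned in the difference between tissues. Promoter motifs were chosen, and shortened to at most 9 letters, after the windows had been seen. Protein sequences were not used here. A further gene of these lists is not reported here.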

Additional observations from a re-analysis of the deposited data

Results flagged for a closer look

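*H2-K1*, *H2-T22* and *H2-T23* drew attention because the 3 MKO libraries all lay below the 3 f/f libraries in BMDMs and all above them in liver. The difference of the genotype effects, BMDM minus liver on the log2 scale, was −0.87 for *H2-K1*, −1.30 for *H2-T22* and −1.19 for *H2-T23*, and the edgeR interaction test gave adjusted p-values of 0.237, 0.125 and 0.15. Of 13244 genes tested in every fit, 344, or 2.6%, were separate in opposite directions or passed the adjusted p. The liver directions follow the library labels, which a receptor table given with the study contradicts. With the liver direction turned, the 3 genes would have lower estimates in both tissues, and the differences were −0.44, −0.26 and −0.68 (edgeR adjusted p = 0.506, 0.665 and 0.322).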

How the results depend on the processing

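Among the fits with 1 BMDM library left out, the one without f/f replicate 2 gave the most BMDM genes lower at an unadjusted p under 0.05, and the one without f/f replicate 3 the class I medians nearest to 0. With DESeq2, 11 of the genes passed an adjusted p of 0.05 in BMDMs and 9 in the difference between tissues, beside 7.91% and 4.64% of all genes. With all 12 libraries in 1 fit, 4 passed in BMDMs and 1 was higher at an unadjusted p under 0.05, beside 0.87% and 9.48% of all genes. Library size alone moved the BMDM median of all genes to 0.17 on the log2 scale, so values under it are relative to that shift. It turned *H2-DMb1* in BMDMs to 0.0898 and the difference of *H2-Ab1* to 0.0062, and the difference of *H2-Oa*, near 0 counts in liver, was 0.18 under it, 0.033 with no filter and 0.015 with DESeq2. With the liver direction turned, 8 genes had a lower and 1 a higher difference between tissues at an unadjusted p under 0.05. Of all genes, 7.46% were lower and 6.62% higher. The difference turned to 0.901 for *H2-Ab1*, 0.334 for *H2-DMb1* and 0.229 for *H2-T-ps*. Causes were not tested. Of 753 values with no library left out, these 8 reversed.

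With 1 library left out, genes lower in BMDMs at an unadjusted p under 0.05 numbered 10 to 19 and higher 0 to 1. Of all genes, 4.6% to 14.7% were lower and 3.55% to 10.8% higher. In liver, 1 to 8 were higher, beside 3.12% to 6.35% of all genes. In the difference between tissues, 0 to 9 passed the adjusted p, 13 to 18 were lower and 0 to 1 higher. Of all genes, 0% to 1.93% passed, 5.05% to 10.5% were lower and 5.15% to 9.11% higher. Median log2 fold changes in BMDMs ran from −0.65 to −0.24 (classical), −1.31 to −0.70 (nonclassical) and −0.32 to 1.10 (class II), and in liver from 0.084 to 0.13, 0.0052 to 0.38 and 0.29 to 0.88. Estimates that turned ran, in BMDMs, from −0.16 to 1.38 for *Ciita*, −0.37 to 1.44 for *H2-Aa*, −0.76 to 0.74 for *H2-Ab1*, −0.28 to 1.65 for *H2-Eb1*, −0.52 to 1.02 for *Cd74*, −0.43 to 0.74 for *H2-DMa*, −0.82 to 0.20 for *H2-DMb1*, −0.46 to 0.70 for *H2-DMb2*. In liver they ran from −0.021 to 0.055 for *H2-D1*, −0.034 to 0.26 for *Nlrc5*, −0.048 to 0.92 for *Ciita*, −0.039 to 0.21 for *Tap2*, −0.0037 to 0.068 for *Tapbp*, −0.056 to 0.35 for *H2-DMa*, −0.0497 to 1.17 for *H2-Ob*, −0.072 to 0.51 for *H2-Q4*, −0.023 to 0.38 for *H2-Q6*, −0.25 to 0.42 for *H2-M3*, −0.13 to 0.39 for *H2-Q5*. The differences between tissues that turned ran from −0.42 to 1.14 for *Ciita*, −0.95 to 0.86 for *H2-Aa*, −1.30 to 0.22 for *H2-Ab1*, −0.88 to 1.06 for *H2-Eb1*, −0.94 to 0.59 for *Cd74*, −0.56 to 0.63 for *H2-DMa*, −0.75 to 0.44 for *H2-DMb2*, −0.78 to 0.65 for *H2-Oa*.

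Replicate numbers were not treated as pairs, since the correlations of same-numbered deviations were 0.152, 0.0357 and 0.118 in BMDMs and −0.0755, 0.254 and −0.0331 in liver, and not every library matched its own number best. The replicate block left 14 genes lower in BMDMs and 3 higher in liver at an unadjusted p under 0.05, beside 8.7% and 4% of all genes. It gave 0 adjusted calls among the genes described here in either tissue. Class medians under it were −0.43, −0.998 and 0.57 in BMDMs and 0.11, 0.23 and 0.64 in liver. A liver fit that allowed for sample ID letters gave 0 adjusted calls and 3 genes higher at an unadjusted p under 0.05, beside 5.21% of all genes higher. Depth limits the genes of few counts, such as *H2-Oa*.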
